A study of Mus musculus with 6 samples.

Results

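The 10 genes described here encode endoplasmic reticulum (ER) chaperones and components of the unfolded protein response: Hspa5, Hsp90b1, Hyou1, Herpud1, Xbp1, Sdf2l1, Pdia4, Creld2, Manf and Calr. They were chosen by symbol, and all 10 were found among the 17484 genes with a row in the count files. Bulk RNA-seq was done on E14 cells, a pluripotent embryonic stem cell line of the mouse with a 129/Ola background. All groups were grown with serum, leukaemia inhibitory factor and beta-mercaptoethanol, and were treated 24 h after seeding. One group had 3 h and another 6 h of cycloheximide, an inhibitor of translation elongation, at 250 µg/mL with 0.007% ethanol, while the control had 9 h of ethanol without the drug. Each of the 3 groups had 2 libraries. The control differs from the treated groups in the drug and in the time of exposure, and the effects of these cannot be told apart. The labels do not say that the libraries of a group came from separate cultures, so the p-values measure the spread between these libraries, which may be technical.

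Secreted and membrane proteins are threaded into the ER while they are being made, and resident chaperones fold them there. When unfolded proteins accumulate, the sensors IRE1, PERK and ATF6 start the unfolded protein response: IRE1 splices the Xbp1 mRNA so that it encodes an active transcription factor, ATF6 is cut to release another, and PERK slows translation and favours that of ATF4. The spliced XBP1 and cleaved ATF6 proteins raise transcription of ER chaperone genes, classically through the ER stress element in their promoters. Cycloheximide stops the supply of new proteins to the ER, and the comparisons ask how the transcripts of this system stand after 3 h and 6 h of that block.

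The promoter sequences are shown because ER stress elements are a feature that several of these genes share. The genes were chosen by symbol, but as part of the response that classically acts through this element. Matches in their promoters are thus not independent of the choice, and their share was not tested. RefSeq promoter windows on GRCm38.p6 matched 8 of the 10 genes, and the 250 bases before the annotated start site were searched on both strands. The ER stress element was searched as CCAAT and CCACG with any 9 bases between them, the shorter ER stress element II as ATTGG and CCACG with any 1 base between them, and the core of the unfolded protein response element as TGACGTGG. Both ER stress elements end in CCACG, the complementary strand of the third motif begins with CCACG, and no matches overlapped in these promoters. Capitals mark the fixed letters of each match, and sequences run 5′ to 3′ along the strand of the gene.
Hspa5, chr2:34771840-34772089, plus strand: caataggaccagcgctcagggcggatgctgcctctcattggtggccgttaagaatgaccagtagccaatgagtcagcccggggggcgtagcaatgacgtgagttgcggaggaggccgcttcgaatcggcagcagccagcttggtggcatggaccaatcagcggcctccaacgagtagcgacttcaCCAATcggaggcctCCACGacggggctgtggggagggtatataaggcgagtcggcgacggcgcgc
Hsp90b1, chr10:86705445-86705694, minus strand: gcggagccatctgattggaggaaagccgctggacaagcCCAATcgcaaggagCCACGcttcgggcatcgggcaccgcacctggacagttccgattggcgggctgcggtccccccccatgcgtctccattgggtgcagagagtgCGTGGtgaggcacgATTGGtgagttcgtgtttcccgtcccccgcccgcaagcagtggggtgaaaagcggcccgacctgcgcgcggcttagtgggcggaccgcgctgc
Calr, chr8:84846932-84847181, minus strand: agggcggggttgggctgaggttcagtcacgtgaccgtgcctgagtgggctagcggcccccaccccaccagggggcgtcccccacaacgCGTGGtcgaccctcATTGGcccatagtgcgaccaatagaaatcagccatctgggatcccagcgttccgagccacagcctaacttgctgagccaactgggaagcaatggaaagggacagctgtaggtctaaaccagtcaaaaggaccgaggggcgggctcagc
Creld2, chr15:88819396-88819645, plus strand: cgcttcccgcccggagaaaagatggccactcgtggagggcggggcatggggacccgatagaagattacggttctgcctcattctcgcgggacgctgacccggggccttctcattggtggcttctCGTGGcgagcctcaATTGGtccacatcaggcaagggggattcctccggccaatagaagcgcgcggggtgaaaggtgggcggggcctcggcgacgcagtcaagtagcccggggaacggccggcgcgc
Herpud1, chr8:94386179-94386428, plus strand: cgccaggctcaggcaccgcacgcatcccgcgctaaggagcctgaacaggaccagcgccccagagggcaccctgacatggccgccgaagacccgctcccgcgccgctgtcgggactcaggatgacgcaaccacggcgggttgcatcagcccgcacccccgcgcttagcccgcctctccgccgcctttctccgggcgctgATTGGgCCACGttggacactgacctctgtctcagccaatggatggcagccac

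An exact ER stress element was found in 4 of the 8 promoters, those of Hspa5, Hsp90b1, Calr and Creld2, against 37 of all 32851 mouse promoter windows of the same length (0.113%). In Hspa5 it lay at -65 to -47 from the RefSeq start site on the strand of the gene. GENCODE M21 starts Hspa5 further upstream, at 34771970, so this match lies inside the gene span of that annotation. Hsp90b1 held it at -212 to -194 on that strand and again at -107 to -89 on the opposite strand, and in Calr and Creld2 the match was on the opposite strand, at -162 to -144 and -126 to -108. Herpud1 held the only ER stress element II among the 8, at -52 to -42, a motif present in 10 of all windows (0.0304%). None of the 8 windows held TGACGTGG, which was found in 0.563% of all windows, and the windows of Xbp1, Sdf2l1 and Pdia4 held none of the 3 exact motifs.

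Library totals ranged from 9385447 to 27351077 counts and were highest at 6 h, and a gene with 3 counts would stand at 0.099 to 0.367 CPM (its counts as parts of the scaled library total), a limit that covers counting error only. All 10 genes passed the filter on low counts, with at least 74 counts in every library. Counts of mitochondrial genes made up 24.7% to 24.9% of control libraries, 18.9% to 19.6% at 3 h and 16.6% to 17.4% at 6 h. With those genes left out, the members' median log2 fold change was -0.49 at 3 h and -0.94 at 6 h. Summed levels of 10 stem cell markers were 6976 and 7135 CPM in control, 8028 and 8277 CPM at 3 h and 5735 and 5557 CPM at 6 h. Of these 10, 2 were called higher at 3 h and 4 lower at 6 h against control (edgeR), beside 3.6% and 14.3% of all genes. Although the sum was higher at 3 h, 6 of the 10 fitted changes were then below 0, with a median of -0.06. At 6 h against control all 10 were below 0, with a median of -0.35, beside 47.7% of all genes below 0 at each time. At 6 h against 3 h all 10 fitted changes were below 0 and 4 were called lower, beside 49.4% and 1.18% of all genes. Markers of 2-cell-like cells summed to at most 1.47 CPM (3 of 5 had a row), those of fibroblasts and feeders to at most 10.1 CPM (5 of 7 had a row) and 6 primitive endoderm markers to between 5.85 and 19.1 CPM, with the lowest sums in control. Ectoderm and mesoderm markers, all 8 with a row, summed to 92.1 and 67.8 CPM in control, 102 and 129 CPM at 3 h and 76.2 and 90.2 CPM at 6 h. Of the 6 tested, Nes was called, higher at 6 h (log2 fold change 1.73, edgeR adjusted p = 0.00733). The part of these shifts in the results was not tested. CPM values scaled by the trimmed mean of M values (TMM) are relative to the other transcripts of a library, so that a change in the total RNA of a cell is not measured, and in bulk RNA fewer expressing cells and less RNA per cell cannot be told apart.

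Transcripts of several ER chaperones fell after cycloheximide, at 3 h and at 6 h. At 3 h, 4 of the 10 genes were called lower than in control, Hspa5, Hsp90b1, Manf and Calr, while 1.3% of the 12755 genes tested were called lower (edgeR quasi-likelihood test, Benjamini-Hochberg adjusted p under 0.05). By 6 h, 8 of the 10 were called lower, all but Pdia4 and Creld2, against 14.3% of all genes. The median log2 fold change of the 10 was -0.49 at 3 h and -0.94 at 6 h, beside medians of 0.02 and 0.04 over all genes tested. No member was called higher at either time by edgeR, DESeq2 or limma-voom, while edgeR called 3.6% of all genes higher at 3 h and 14.8% at 6 h. All 10 fitted changes were below 0 on the TMM scale at both times, as were 47.7% of those of all genes at 3 h and 47.7% at 6 h. Both libraries lay below both controls for 8 of the 10 genes at 3 h and for 10 at 6 h, against 24.8% and 31.2% of all genes. The 2 comparisons share their control libraries. Each library was left out only from the comparisons that its group enters. Calls over all genes also became fewer in every such fit at 6 h against control, and moved either way at 3 h. Calls lost in these fits, here and in the lists below, need not be particular to a list, and the shares of all genes called lower or higher in them are not given. Leaving out either 3 h library ended all 4 calls at 3 h, and without control replicate 2 the count was 2; at 6 h the count was 5 without 6 h replicate 2 and 6 or 7 without any other single library.

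**Figure D1:**
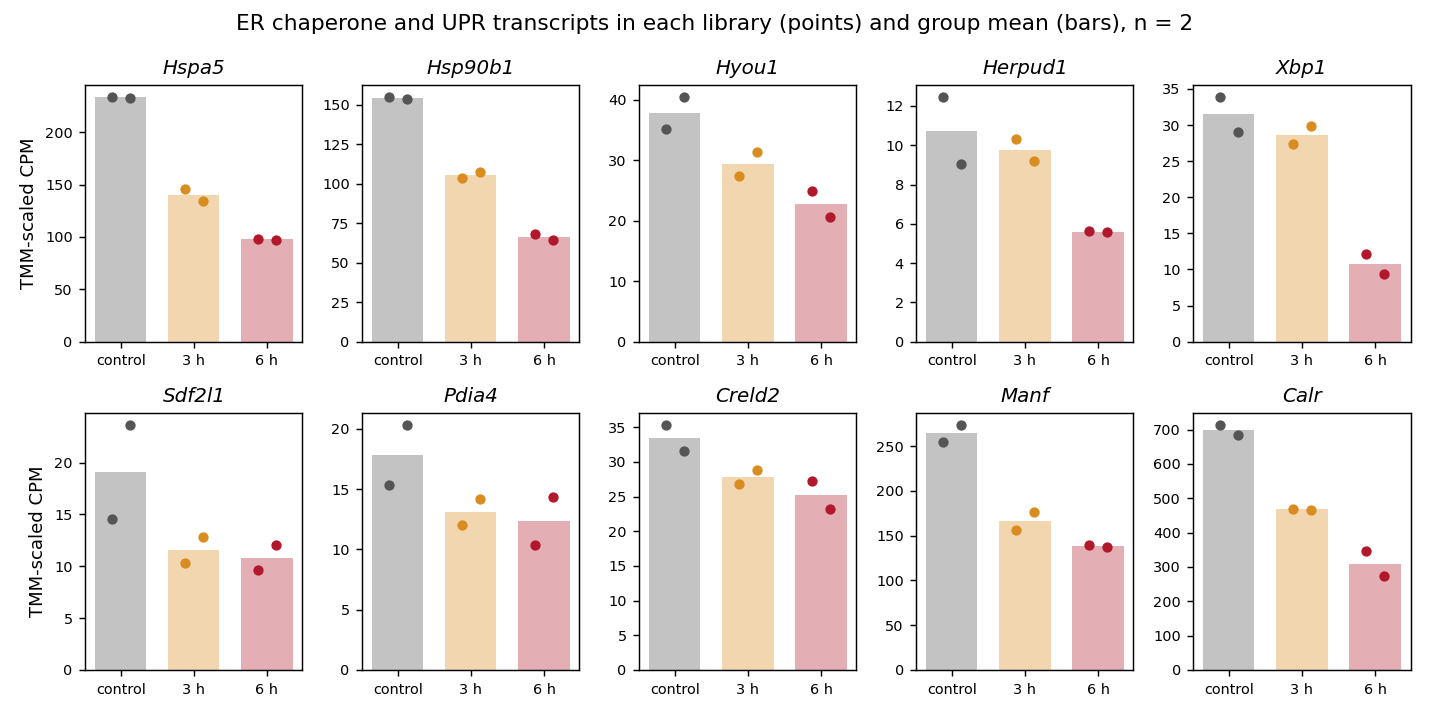
TMM-scaled CPM (vertical axes, from 0) of the 10 transcripts in each library (points) and group means (bars) for control, 3 h and 6 h of cycloheximide, 2 libraries a group. At 6 h both points lie below both control points in every panel, while at 3 h the points of Xbp1 and Herpud1 overlap those of control.

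The summed level of the 10 transcripts was 1502 and 1499 CPM in the control libraries, 989 and 1010 CPM at 3 h and 742 and 658 CPM at 6 h. The control libraries were thus nearly equal, and the groups did not overlap. Calr, Manf and Hspa5 supplied most of these counts, so the sum mainly follows those 3 genes.

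Hspa5 (chromosome 2, 34771970 to 34777547 in GENCODE M21 on GRCm38) encodes BiP, the Hsp70 chaperone of the ER lumen, which binds unfolded chains and holds the stress sensors inactive. Its level was 234 and 233 CPM in control, 146 and 134 CPM at 3 h, and 98.1 and 97.5 CPM at 6 h. The 3 groups did not overlap. Hspa5 fell by 0.74 ± 0.11 on the log2 scale at 3 h (SE; edgeR adjusted p = 0.00937) and by 1.25 ± 0.11 at 6 h (adjusted p = 0.000256), to 59.9% and 41.9% of its control mean. From 3 h to 6 h the log2 fold change was -0.51 ± 0.11 and just missed the threshold (adjusted p = 0.0543).

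Hsp90b1 (chromosome 10, 86690209 to 86705509) encodes GRP94, the Hsp90 paralog of the ER, which folds integrins and Toll-like receptors among others. It stood at 155 and 153 CPM in control, 103 and 108 CPM at 3 h, and 68.4 and 64.5 CPM at 6 h, with no overlap between groups. Hsp90b1 fell by 0.54 ± 0.11 on the log2 scale at 3 h (SE; edgeR adjusted p = 0.033) and by 1.21 ± 0.11 at 6 h (adjusted p = 0.000361). It also fell by 0.67 ± 0.11 from 3 h to 6 h (adjusted p = 0.0283). Its exons overlap those of 3 other annotated genes, among them the opposite-strand pseudogene 1810014B01Rik, which held 23 to 174 counts a library; the counting of strand is not given in the sources used here.

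Hyou1 (chromosome 9, 44379490 to 44392369) encodes GRP170, which exchanges the nucleotide on BiP so that it releases its client. Its control libraries held 35.1 and 40.4 CPM, the 3 h libraries 27.3 and 31.4 CPM, and the 6 h libraries 24.9 and 20.5 CPM. The groups did not overlap but lay closer together than those of Hspa5. The log2 fold change of -0.36 at 3 h did not pass (edgeR adjusted p = 0.225, 95% interval from -0.74 to 0.02), and Hyou1 fell by 0.73 ± 0.17 at 6 h (SE; adjusted p = 0.0135).

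Calr (chromosome 8, 84841850 to 84846934) encodes calreticulin, which binds sugar-bearing glycoproteins and stores calcium in the ER. Calr was at 712 and 685 CPM in control, 469 and 466 CPM at 3 h, and 346 and 274 CPM at 6 h. Each group lay below the one before, although the 6 h libraries differed from each other more than those of control or 3 h. Calr fell by 0.58 ± 0.12 on the log2 scale at 3 h (SE; edgeR adjusted p = 0.0372) and by 1.17 ± 0.12 at 6 h (adjusted p = 0.000644), and its change of -0.59 from 3 h to 6 h just missed the threshold (adjusted p = 0.0543). GENCODE M21 names 1 pseudogene of Calr and none of the other members by symbol, and reads it shares could be counted for either.

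Pdia4 (chromosome 6, 47796141 to 47813430) encodes ERp72, a protein disulfide isomerase. It had 15.3 and 20.3 CPM in control, 12 and 14.2 CPM at 3 h, and 10.4 and 14.4 CPM at 6 h, from 166 to 375 counts a library. Both treated groups lay below the control libraries and overlapped each other. Neither log2 fold change passed, at -0.43 for 3 h (edgeR adjusted p = 0.295) and -0.52 for 6 h (adjusted p = 0.13), and the 95% interval at 6 h ran from -1.05 to 0.02 and so takes in the -0.93 of Manf.

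Sdf2l1, Creld2 and Manf are smaller ER-resident proteins that are classical targets of the stress response. Manf (chromosome 9, 106838312 to 106891979) binds BiP and is partly secreted. It was at 255 and 273 CPM in control, 156 and 176 CPM at 3 h, and 140 and 137 CPM at 6 h, so most of its difference from control was present at 3 h. Manf fell by 0.67 ± 0.11 on the log2 scale at 3 h (SE; edgeR adjusted p = 0.0169) and by 0.93 ± 0.11 at 6 h (adjusted p = 0.00118), and its change of -0.26 between the treated groups did not pass (adjusted p = 0.261). The annotation of Manf overlaps exons of Rbm15b on its own strand and of Dcaf1 on the other. Rbm15b held 765 to 1890 counts a library, beside 2235 to 4242 for Manf. The part of shared reads in the Manf counts was not tested.

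Sdf2l1 (chromosome 16, 17130138 to 17132383) works with the BiP co-chaperone Dnajb11. Its control libraries differed widely, at 14.5 and 23.6 CPM, against 10.3 and 12.8 CPM at 3 h and 9.64 and 12 CPM at 6 h. All treated libraries lay below both controls. The log2 fold change was -0.70 ± 0.27 at 3 h (SE; edgeR adjusted p = 0.15) and -0.80 ± 0.26 at 6 h, where its adjusted p of 0.04995 lay at the threshold, and without control replicate 2 the 6 h value was -0.42 (adjusted p = 0.245).

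Creld2 (chromosome 15, 88819646 to 88826683) is an ER protein with disulfide isomerase activity. It was at 35.3 and 31.5 CPM in control, 26.8 and 28.8 CPM at 3 h, and 27.3 and 23.3 CPM at 6 h. The treated libraries were below the controls and overlapped between 3 h and 6 h. Its log2 fold changes were the smallest of the 10 at 6 h, -0.27 at 3 h (edgeR adjusted p = 0.323) and -0.40 at 6 h (adjusted p = 0.081, 95% interval from -0.75 to -0.05), and did not pass.

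Xbp1 (chromosome 11, 5520659 to 5525893) encodes the transcription factor that IRE1 activates by splicing; counts per gene do not separate the spliced and unspliced forms. Xbp1 stood at 33.9 and 29.1 CPM in control, 27.4 and 29.8 CPM at 3 h, and 12.1 and 9.39 CPM at 6 h. The 3 h libraries overlapped control, and the 6 h libraries lay far below both. At 3 h the log2 fold change of -0.14 ± 0.18 did not pass (SE; edgeR adjusted p = 0.667, 95% interval from -0.55 to 0.26). Xbp1 fell by 1.55 ± 0.18 at 6 h (adjusted p = 0.00106), to 34.1% of its control mean, the largest fall of the 10 at that time. It fell by 1.41 ± 0.18 from 3 h to 6 h (adjusted p = 0.0101).

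Herpud1 (chromosome 8, 94386438 to 94395377) encodes a membrane protein that organises ER-associated degradation. It was at 12.4 and 9.04 CPM in control, 10.3 and 9.19 CPM at 3 h, and 5.61 and 5.60 CPM at 6 h, from 74 to 170 counts a library. As with Xbp1, the 3 h libraries overlapped control and the 6 h libraries lay below. The log2 fold change was -0.15 ± 0.24 at 3 h (SE; edgeR adjusted p = 0.741), and Herpud1 fell by 0.95 ± 0.24 at 6 h (adjusted p = 0.0196). The change of -0.80 from 3 h to 6 h did not pass (adjusted p = 0.13).

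**Figure D2:**
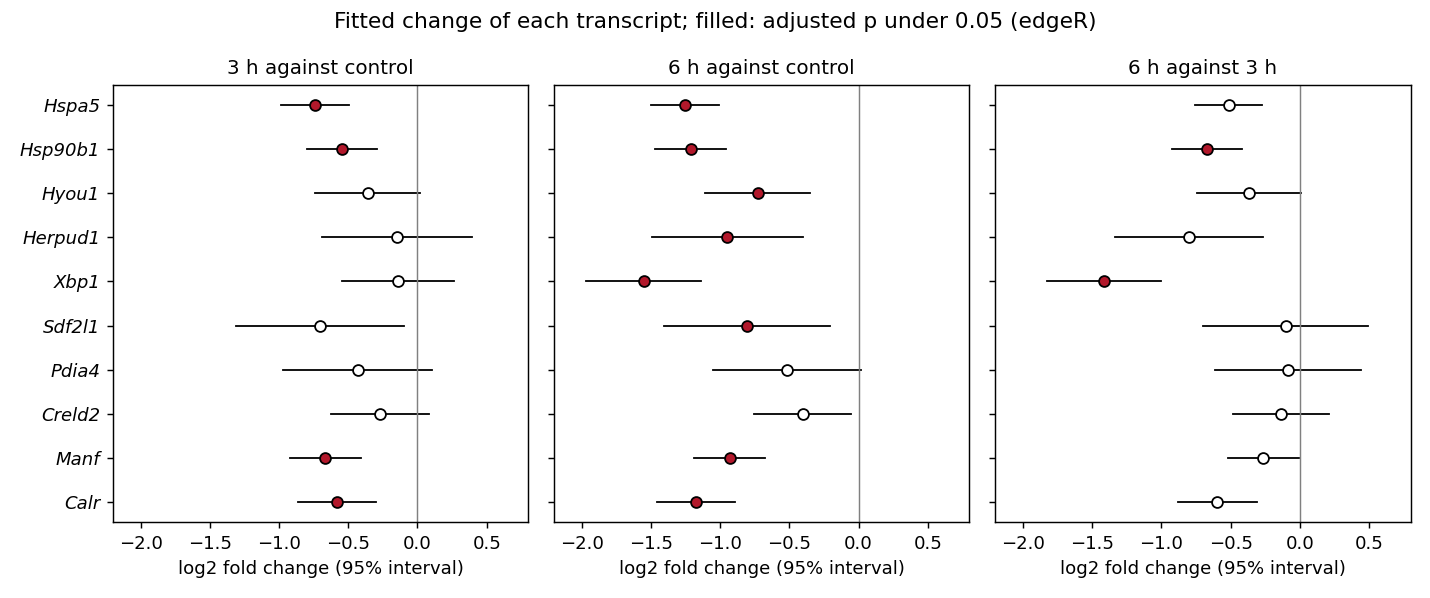
Fitted log2 fold change (horizontal axis) of each of the 10 genes with its 95% interval in the 3 comparisons; filled points have an edgeR adjusted p under 0.05. At 3 h the points of Xbp1 and Herpud1 lie at -0.14 and -0.15 beside those of Hspa5 and Manf at -0.74 and -0.67, while at 6 h Xbp1 is the lowest at -1.55.

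Directly between 6 h and 3 h, 2 of the 10 genes were called lower, Xbp1 and Hsp90b1, against 1.18% of all genes, and both 6 h libraries lay below both 3 h libraries for 7 genes, against 26.9% of all genes. No member was called higher, against 0.455% of all genes, and all 10 fitted changes were below 0, against 49.4% of all genes. The median log2 fold change of the 10 was -0.44, beside 0.01 over all genes. The 10 stem cell markers had a median of -0.46 in the same comparison, with 4 called lower. With DESeq2 or limma-voom, 4 members were called in this comparison, Hspa5 and Calr in addition, and with any single 3 h or 6 h library left out none was called. The difference between the later 3 h and the first 3 h was then tested within the same model, a contrast chosen after the values were seen. For Xbp1 the later change was more negative than the first by -1.27 ± 0.30 on the log2 scale (SE; 95% interval from -1.96 to -0.58), but it did not pass over all genes (edgeR adjusted p = 0.184). The other 9 genes did not pass either, with values from -0.65 for Herpud1 to 0.60 for Sdf2l1, while 0.533% of all genes were called more negative in the later interval. Over 18 alternatives the adjusted p for Xbp1 ran from 0.013 with no filter, the setting that passed, to 0.786. The contrast compares the 2 intervals within a gene and does not compare genes with each other.

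The size of the falls depended on the scaling of the libraries. With library size alone, the median over all genes shifted from 0.02 to 0.25 at 3 h and from 0.04 to 0.40 at 6 h. On that scale 8 of the 10 log2 fold changes stayed below 0 at 3 h, with Xbp1 at 0.09 and Herpud1 at 0.08, and 10 of 10 at 6 h. A change of scaling shifts all genes by about the same amount, so that relative to the median of all genes the members' median stays at -0.51 at 3 h and -0.98 at 6 h by construction. The number of members called lower was 2 at 3 h and 5 at 6 h with library size alone, against 0.447% and 3.87% of all genes. Among the genes called in either direction, the share called lower went from 26.6% to 4.15% at 3 h and from 49.2% to 11.8% at 6 h. Most genes called with library size alone were thus higher, and at 6 h the 494 genes called lower were only 11.8% of those called. The share of all genes called higher on that scale is not given here. Higher calls in the lists below on that scale therefore have no background beside them and are not read as a result about a list.

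Of 25 other ER folding factors tested, 9 were called lower and 3 higher at 6 h, beside 14.3% and 14.8% of all genes, with a median log2 fold change of -0.30. With library size alone 3 were called lower, beside 3.87% of all genes, and 4 higher. The median was then 0.06, beside 0.40 over all genes. On the TMM scale 1 of the 25 was called in each direction at 3 h, beside 1.3% lower and 3.6% higher over all genes. Without 6 h replicate 1, 5 were called lower at 6 h and 1 higher, and without 6 h replicate 2 these counts were 3 and 1. Pdia6, a disulfide isomerase that acts with BiP, fell from 201 and 213 CPM in control to 80.4 and 77.4 CPM at 6 h (log2 fold change -1.39, edgeR adjusted p = 0.000171), and was also called lower at 3 h. Ppib, the ER cyclophilin that isomerises prolines, fell by 1.11 ± 0.20 (SE; adjusted p = 0.00596) and P4hb, the archetypal disulfide isomerase, by 0.78 ± 0.14 (SE; adjusted p = 0.00492). The 3 that rose were Dnajc1, an ER co-chaperone, with a log2 fold change of 1.88 from control libraries at 15.2 and 6.60 CPM (adjusted p = 0.00557), Sdf2, the constitutive relative of Sdf2l1, at 0.58 (adjusted p = 0.0449), and the Hsp70 relative Hspa13 at 0.47 (adjusted p = 0.0322). Dnajb9, a BiP co-chaperone and textbook target of spliced XBP1, did not pass at 6 h (log2 fold change -0.30, adjusted p = 0.279).

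Genes for entry into the ER, which form the translocon, the signal recognition particle, signal peptidase and oligosaccharyltransferase, gave more lower than higher calls at 6 h on the TMM scale. Of 31 tested, 13 were called lower and 1 higher, beside 14.3% and 14.8% of all genes, with a median log2 fold change of -0.32. With library size alone 2 were called lower, beside 3.87% of all genes, and 4 higher. The median was then 0.04, beside 0.40 over all genes. On the TMM scale 1 of the 31 was called lower at 3 h, beside 1.3% of all genes, and 0 higher, beside 3.6%. The number called lower at 6 h was 7 without 6 h replicate 1 and 4 without 6 h replicate 2. Ostc, an oligosaccharyltransferase subunit, fell by 0.94 ± 0.12 (SE; edgeR adjusted p = 0.00141), followed by the signal peptidase subunit Spcs3 (log2 fold change -0.88) and the translocon-associated Ssr2 (-0.75). Sec62, which serves post-translational entry, was the gene that rose, from 255 and 298 CPM to 587 and 497 CPM (log2 fold change 0.97, adjusted p = 0.00442).

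Of 20 ER-associated degradation genes, 5 were called lower and 4 higher at 6 h, beside 14.3% and 14.8% of all genes, and their median log2 fold change was -0.01. With library size alone 0 were called lower, beside 3.87% of all genes, and 7 higher, on a scale where most genes called were higher. The median was then 0.35, beside 0.40 over all genes. The 5 lower calls were 3 without control replicate 2, 1 without 6 h replicate 1 and 0 without 6 h replicate 2. Derl3, a stress-inducible derlin, fell by 1.68 ± 0.45 (SE; edgeR adjusted p = 0.0246) from low levels of 3.70 and 6.23 CPM. Sel1l, the partner of the Hrd1 ligase, fell by 0.66 and Edem1, which trims mannose from misfolded glycoproteins, by 0.65 (adjusted p = 0.0216 and 0.0125), and Edem1 was also called lower at 3 h. That 3 h call was lost with library size alone, with the replicate block, against a 1.2-fold change, with only the libraries compared, without control replicate 2 and without either 3 h library. Faf2, Vimp and Ube2g2, which serve extraction and ubiquitination at the membrane, rose by 1.32, 1.19 and 0.88 on the log2 scale (adjusted p = 0.00129, 0.00173 and 0.00909).

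Of 9 tested genes for sensors and their processing, 1 was called lower and 2 higher at 6 h, near the 14.3% and 14.8% of all genes. Their median log2 fold change was -0.10. With library size alone 0 were called lower, beside 3.87% of all genes, and 3 higher. The median was then 0.26, beside 0.40 over all genes. On the TMM scale 0 were called at 3 h (edgeR), also at an unadjusted p under 0.05. Atf6 rose from 22.3 and 22 CPM in control to 33 and 36.1 CPM at 6 h (log2 fold change 0.64, adjusted p = 0.0125), and Creb3, a membrane-bound factor of related design, by 1.02 (adjusted p = 0.0081). Mbtps1, the Golgi protease that makes the first cut in ATF6, fell by 0.70 (adjusted p = 0.00853). Eif2ak3, which encodes PERK, did not pass (log2 fold change -0.22, adjusted p = 0.477). Ern1, which encodes IRE1 alpha, held 0 to 5 counts a library and was not tested, and Rtcb had no row by that symbol. Without 6 h replicate 2 none of the 9 was called at 6 h.

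Of 13 genes of the PERK-ATF4 arm, 3 were called higher at 3 h, where 3.6% of all genes were. At 6 h 3 were called higher and 3 lower, beside 14.8% and 14.3% of all genes, and their median was -0.33 at 6 h. With library size alone 3 were called higher at 3 h, and at 6 h 2 lower, beside 3.87% of all genes, and 3 higher. The 6 h median was then 0.03, beside 0.40 over all genes. With either 3 h library left out none was called at 3 h, and without control replicate 2 the number was 1. At 6 h 2 were called lower and 1 or 2 higher with either 6 h library left out. Atf4 was at 302 and 295 CPM in control and at 466 and 464 CPM at 6 h (log2 fold change 0.64, edgeR adjusted p = 0.00288). Ddit3, which encodes the pro-apoptotic factor CHOP, and Atf3 rose by 1.38 and 1.51 (adjusted p = 0.0158 and 0.013), both from at most 3.04 CPM in control. Trib3 and Chac1, targets of ATF4 and CHOP, fell by 1.43 and 1.32 (adjusted p = 0.00325 and 0.0016). Ppp1r15b, the constitutive eIF2 alpha phosphatase subunit, fell by 0.53 (adjusted p = 0.0182).

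**Figure D3:**
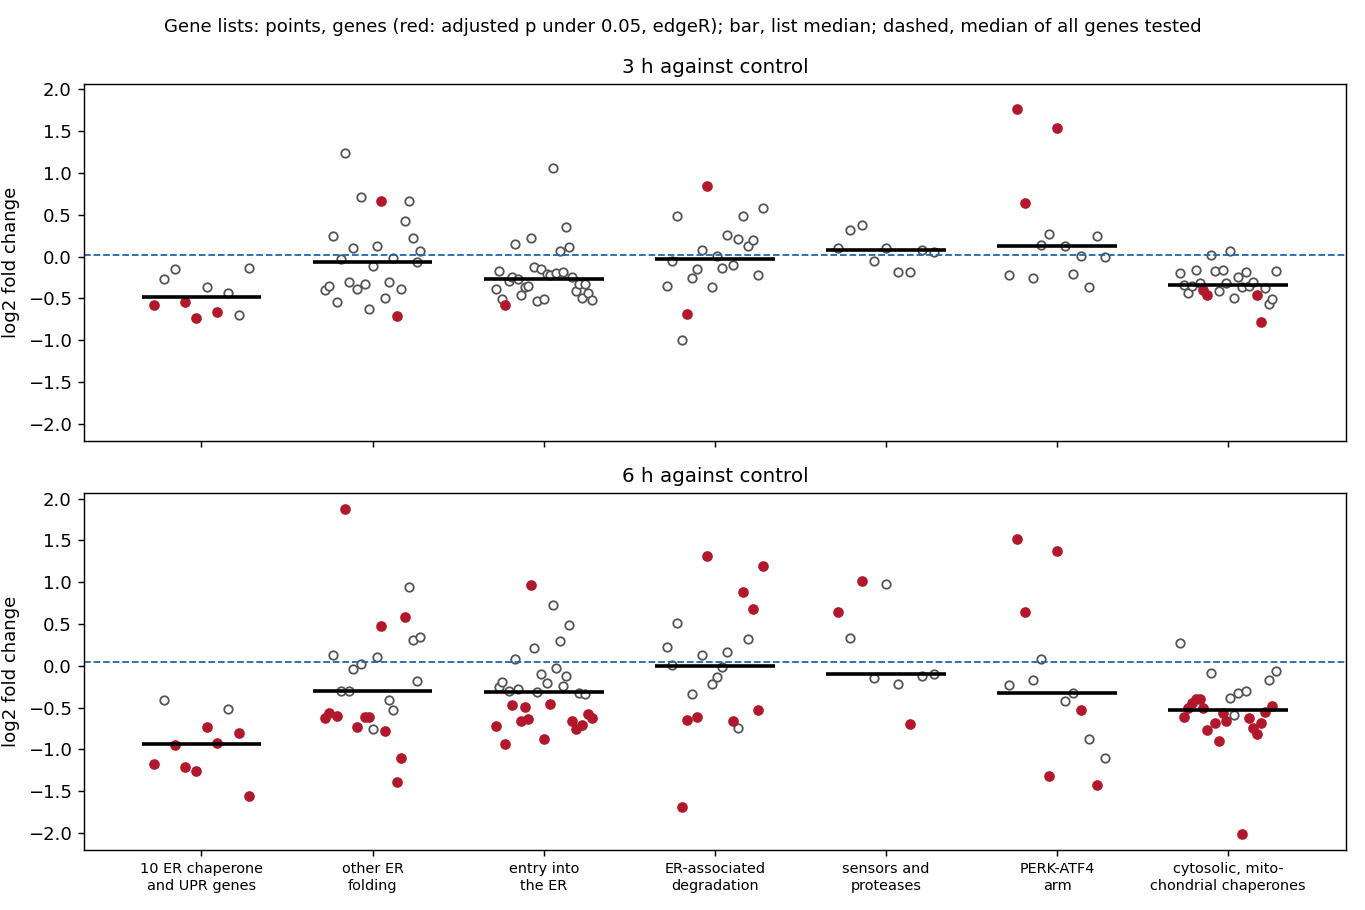
Log2 fold change (vertical axis) of each tested gene in 7 lists at 3 h (top) and 6 h (bottom) against control; red points have an edgeR adjusted p under 0.05, bars are list medians and the dashed line is the median of all genes. The 10 ER chaperone and stress response genes have the lowest median at both times, -0.49 and -0.94, and Hspa8 is the lowest point of the chaperone list on the right at -2.01.

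Many chaperone genes outside the ER fell by 6 h. Of 26 cytosolic and mitochondrial chaperone genes, 4 were called lower at 3 h and 18 at 6 h (edgeR), beside 1.3% and 14.3% of all genes, with medians of -0.34 and -0.53. With library size alone 6 were called lower at 6 h, beside 3.87% of all genes, and the median was -0.17, beside 0.40 over all genes. With either 3 h library left out 0 were called at 3 h, and 2 without control replicate 2, and at 6 h 12 were called without 6 h replicate 1 and 10 without 6 h replicate 2. Hspa8, the constitutive cytosolic Hsp70, fell from 1218 and 1280 CPM to 303 and 319 CPM at 6 h (log2 fold change -2.01, adjusted p = 3.04e-05). Hsp90ab1, the constitutive cytosolic Hsp90, fell by 0.66 (adjusted p = 0.00165), while mitochondrial Hspa9 did not pass (log2 fold change -0.30, adjusted p = 0.0663).

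Genes with an exact ER stress element within 250 bases of the start site numbered 14 among those tested. Of these, 7 were called lower at 6 h, or 50.0%, and 2 higher, beside 14.3% and 14.8% of all 12755 genes tested, of which 9472 had a window. Leaving out the 4 members among the 14, 4 of 10 were called lower, with a median log2 fold change of -0.35 beside 0.04 over all genes. They were Derl3, Pdia6, the lectin chaperone Canx and Hnrnpa3, an RNA-binding protein. Alg12, which builds the sugar chain for glycosylation, and Acacb, an acetyl-CoA carboxylase, rose by 1.15 and 1.27 (edgeR adjusted p = 0.00894 and 0.0307). The 14 genes included some that fell, some that rose and some that did not pass, such as Dnajc3 at -0.04. Xbp1 and Sdf2l1 were called lower with no exact match in their windows. An exact search can miss variants, as 5 of the 8 members with a window matched when the last 2 letters were left free, against 4. The part of the motif in the falls was not tested. The shares at 6 h differed with the motif searched. With its last 2 letters left free the element matched 115 tested genes, 24.3% called lower and 11.3% higher (median -0.07). Without the members, 25 of 110 were called lower and 13 higher (median -0.06). The core of the unfolded protein response element gave 15.4% in each direction among 91 genes. Among 6 genes with ER stress element II, 1 was called lower and 2 higher. The counts and medians of these sets are from the main fit on the TMM scale. Library size alone and fits with a library left out were not run for the sets.

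**Figure D4:**
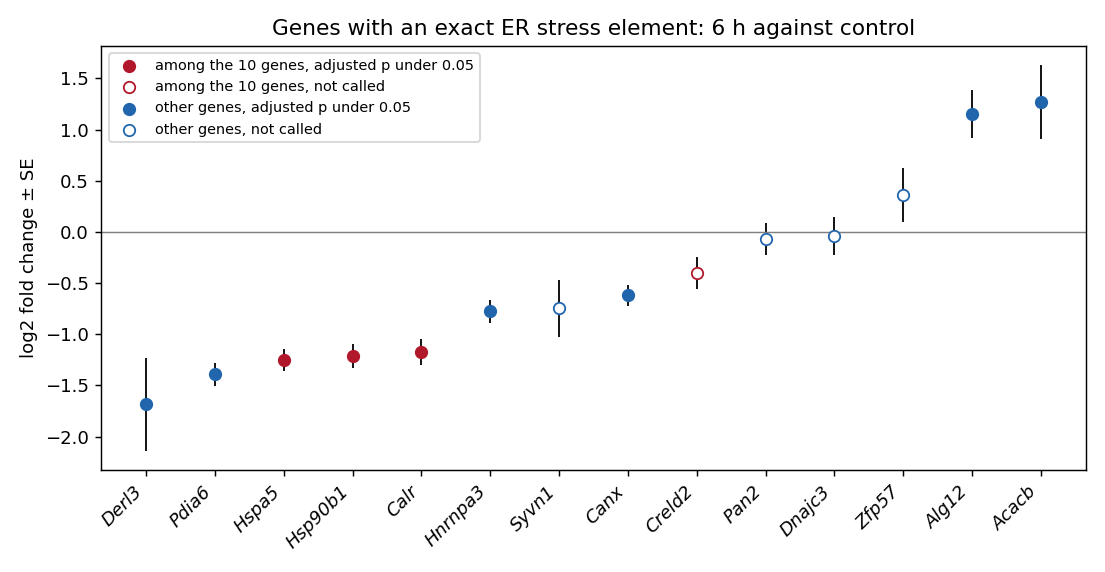
Log2 fold change ± SE at 6 h against control (vertical axis) for the 14 tested genes with an exact ER stress element, ordered from lowest to highest; red points are among the 10 genes described and filled points have an edgeR adjusted p under 0.05. Derl3 and Pdia6 lie beside Hspa5, Hsp90b1 and Calr at the low end, and Alg12 and Acacb lie above 1.

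The genes most like the group were sought by the distance of their centred log2 CPM from the median profile of the 10 genes over the 6 libraries. Among 5465 other genes with at least 20 CPM on average, the 8 closest were Ddx17, Otud4, mtAtp6, Cdk1, Nqo1, mtNd4, Selk and mtCytb, at root-mean-square distances of 0.04 to 0.07 on the log2 scale. The RNA helicase Ddx17 stood at 99.1 and 101 CPM in control, 70.1 and 73.6 CPM at 3 h, and 52.6 and 46.5 CPM at 6 h. Selk encodes an ER membrane selenoprotein, and mtAtp6, mtNd4 and mtCytb are encoded on the mitochondrial chromosome. Hsp90b1 and Manf lay closest to the median profile among the 10, with 25 and 28 of the 5465 other genes closer, and Xbp1 farthest, with 2814 closer. A stepwise fall of this size was thus not particular to the ER chaperone genes.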

How the data were processed

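Each deposited file holds the authors' counts, whole numbers of reads or tags per gene for 1 library. The labels' protocols name TRIzol extraction, sample barcodes and pooled sequencing of polyadenylated RNA. The genome build is mm10 per the submitters' processing notes; the aligner, counter, strand setting and use of molecular identifiers are not given in the sources used here. The design text mentions single-cell sequencing, but with 1 column a file the data were analysed as bulk libraries. One row (a reporter with 3 counts in all) was left out of totals and tests. Groups come from the sample titles.

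Filtering with filterByExpr (10 counts, total 15) left 12755 genes. Counts were scaled by TMM and fitted with edgeR 4.0.16 in R 4.3.3 (quasi-likelihood, all 6 libraries, 3 residual degrees of freedom, no replicate block). Two-sided p-values were Benjamini-Hochberg adjusted over all genes, with calls at an adjusted p under 0.05. A standard error is the absolute log2 fold change over the square root of F. The fit was tested on simulated counts, where false calls made up more than the nominal share of calls in all 3 comparisons, most at 6 h against control, and many changed genes were missed. Replicates differed beyond counting noise (chi-square per degree of freedom 27.5, 18.7 and 27.7 in control, 3 h and 6 h).

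The members and gene lists were chosen with earlier results of these data known. All 10 members are named, and from each other list up to 3 called genes with the largest fall and up to 3 with the largest rise at 6 h, plus 10 fixed genes. The sets of genes with a promoter motif were added after values were seen, as was the contrast of the later with the first 3 h. Alternatives covered scaling, filters, DESeq2 1.42.0, limma-voom (limma 3.58.1), a replicate block, thinned counts, a 1.2-fold test and leaving out each library. Positions are from GENCODE M21 and promoters from RefSeq on GRCm38.p6.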

Additional observations from a re-analysis of the deposited data

Results flagged for a closer look

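For 2 of the 10 genes the difference between the treated groups was called. Hspa5 and Calr, at log2 fold changes of -0.51 and -0.59, just missed the threshold (edgeR adjusted p = 0.0543 for both). The calls therefore do not set Hsp90b1 apart from these genes. For Xbp1 the log2 fold change from 3 h to 6 h was -1.41 (edgeR adjusted p = 0.0101), with 27.4 and 29.8 CPM at 3 h and 12.1 and 9.39 CPM at 6 h, and the call was lost when any single 3 h or 6 h library was left out (adjusted p from 0.0529 to 0.137). For Hsp90b1 it was -0.67 (adjusted p = 0.0283), with 103 and 108 CPM at 3 h and 68.4 and 64.5 CPM at 6 h, and 7 of 17 alternatives lost the call (adjusted p from 1.04e-05 to 0.261 over them all).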

How the results depend on the processing

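Against control at 6 h, the calls of Hspa5, Hsp90b1, Xbp1, Manf and Calr held under all 17 alternatives run. Sdf2l1 lost its call in 10, Herpud1 in 4 and Hyou1 in 2, and Pdia4 and Creld2 passed in none. The number of members called lower at 3 h, 4, was 2 with library size alone, 1 in the test against a 1.2-fold change, and 0 to 4 with a library left out. At 6 h the number, 8, was 5 with library size alone and 5 to 7 with a library left out. From 3 h to 6 h it was 2, and it was 1 with library size alone, with the replicate block or against a 1.2-fold change, 4 with no filter, DESeq2, limma-voom, robust moderation or only the libraries compared, and 0 with any library left out. The members' median with library size alone was -0.26 at 3 h, -0.58 at 6 h and -0.31 between them. With a library left out it ran from -0.57 to -0.35, from -1.05 to -0.95 and from -0.52 to -0.38. No called value reversed.

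Over all genes, 625 were called at 3 h, 3703 at 6 h and 209 between the treated groups. The 3 h count was 1373 with library size alone, 1812 with no filter, 1447 with DESeq2, 279 against a 1.2-fold change, 218 with only the libraries compared and 108 to 1033 with a library left out. The 6 h count was 1312 to 3578 with a library left out. Between the treated groups it was 1058, 688, 508, 126, 95 and 563 with no filter, DESeq2, limma-voom, the replicate block, the 1.2-fold test and only the libraries compared, and 14 to 28 with a library left out; with library size alone 43.5% of calls were lower, against 72.2%. The lone library left in a group is assumed to vary like the others. The labels link same-numbered libraries by the number alone. Over all genes the correlations of their deviations were 0.09, -0.02 and 0.02, which cannot exclude a link in single genes. With the replicate block 3, 8 and 1 members were called lower in the 3 comparisons.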
